A study of Mus musculus with 12 samples.

Results

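The gasdermins Gsdma, Gsdma2, Gsdma3, Gsdmc, Gsdmc2, Gsdmc3, Gsdmc4 and Gsdmd were followed across 12 mouse arrays. The members were listed by name and were found through the accession that each probe carries, with control spots left out. Of the 8 genes, 7 had a probe and Gsdmc2 had none found in this way, which left 9 gasdermin probes among 39429 on the array. All 7 genes passed the filter on dim probes (a Cy5 signal well above background on at least 2 arrays) and were tested among 25085 features. The probe used for each of them was well above background on all 12 arrays, and none was saturated.

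The series concerns endoglin (Eng), which helps cells bind Tgf-beta family ligands, in the hair follicle cycle. Its 12 samples cover 2 genotypes, wt and end +/- in the titles (read as Eng+/-, heterozygous for endoglin), at 50 d and 90 d. At each day the titles name no treatment, clp or tpa, so that each of the 12 combinations had 1 array and no combination was replicated. On every array the sample carried Cy5 and a pool of all conditions carried Cy3, and levels are given as the log2 ratio of sample to pool. This follows the labels of each array; the text on the whole series instead names wt RNA in Cy3, dye swaps and a GenePix scanner, and that conflict was not settled. Neither the meaning of clp and tpa nor what the days count is given in the sources used here, and both wt titles without a treatment carry the word pool. Nothing in the labels says whether the RNA came from 1 animal or several. The tests measure only the spread between these arrays, and an array of a whole sample cannot tell apart fewer cells of a type and less RNA per cell.

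The labels call the material E14 embryonic stem cells, but the probes read as hair-bearing skin. All 7 basal epidermis markers, all 10 upper epidermis markers with a probe and 15 of 17 hair shaft and inner root sheath markers were well above background on all 12 arrays. Of 7 embryonic stem cell markers, 4 (Nanog, Dppa5a, Utf1 and Tdgf1) were well above background on all 12 arrays, Sox2 was on 7, Pou5f1 on 1 and Zfp42 on 0. Median Cy5 intensity ran from 166.5 to 573 scanner units, and 65.7% to 77.7% of probes were well above background. Eng itself was lower in the Eng+/- array in 5 of 6 genotype pairs, and was 0.63 higher (log2) in the tpa 50 d pair. Hair genes had the widest range of medians among the 9 marker lists: the median of the 17 hair genes was -5.62 in Eng+/- without treatment at 90 d, -4.8 in Eng+/- tpa 50 d and -5.33 in wt tpa 50 d, against -1.57 to 1.08 on the other 9 arrays. The 4 arrays of a treatment level share a slide that holds no other level, so slide and treatment cannot be told apart, whereas both genotypes and both days share each slide.

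Gasdermins are proteins held inactive by their own carboxy-terminal part. When a protease cuts the linker, the amino-terminal part inserts into membranes and assembles into pores, through which interleukins leave the cell and by which the cell can die. Gsdmd is the best known of them and is cut by inflammatory caspases, whereas the Gsdma and Gsdmc genes are expressed mainly in epithelia. Mutations of Gsdma3 cause hair loss in mice, through disturbed follicles and sebaceous glands.

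In the RefSeq gene order (GRCm38.p6), Gsdma3, Gsdma2 and Gsdma are direct neighbours on chromosome 11. Gsdmc, Gsdmc2, Gsdmc3 and Gsdmc4 lie in a row on chromosome 15, separated by the pseudogenes 1700065I16Rik, Gsdmcl1 and Gsdmcl2 and followed by Gsdmcl-ps, and Gsdmd lies elsewhere on chromosome 15. Such close copies can share hybridisation signal, and probe sequences were not used here, so how far the Gsdmc probes read each other's RNA was not tested. A probe for the pseudogene Gsdmcl-ps was well above background in Cy5 on 1 array.

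Upstream sequence from RefSeq was held for 2 of the 8 genes, the gene with the largest clp difference of the family (Gsdmc3) and the hair-loss gene Gsdma3. The 250 bases before the annotated start are shown for both, 5′ to 3′ on the gene's strand, with motif matches in capitals. Gsdmc3 covers chr15:63878559-63878808 on the minus strand, and Gsdma3 covers chr11:98626099-98626348 on the plus strand (GRCm38.p6).
Gsdmc3: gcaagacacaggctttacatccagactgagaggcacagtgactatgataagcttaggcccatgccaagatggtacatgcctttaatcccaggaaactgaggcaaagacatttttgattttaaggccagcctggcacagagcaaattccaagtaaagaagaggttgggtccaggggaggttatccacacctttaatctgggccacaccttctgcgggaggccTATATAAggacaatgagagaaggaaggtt
Gsdma3: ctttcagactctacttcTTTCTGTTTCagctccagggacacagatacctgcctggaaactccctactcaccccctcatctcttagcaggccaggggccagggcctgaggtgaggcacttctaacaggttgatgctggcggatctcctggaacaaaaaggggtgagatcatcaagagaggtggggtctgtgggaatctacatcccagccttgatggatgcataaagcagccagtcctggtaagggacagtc
Both strands were searched for the TATA box (as TATANAA), for the box CCAAT, for the AP-1 site (TGANTCA), and for the element of interferon regulatory factors, a pair of GAAA with any 2 bases between. In Gsdmc3 the capitals mark TATATAA, which starts 29 bases before the annotated start, and in Gsdma3 they mark TTTCTGTTTC, the interferon regulatory factor element on the reverse strand, which starts 233 bases before it. No other match was found in either window. Over 32851 windows of the same length, 10.4% held the first of these motifs, 33.8% the second, 6.75% the AP-1 site and 2.98% the paired element.

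The 3 measured Gsdmc genes were lower on the clp arrays than on the arrays with no named treatment, while the Gsdma genes and Gsdmd did not pass the test. In limma's moderated test, with Benjamini-Hochberg adjustment over all 25085 features, 3 of 7 gasdermins fell with clp and 0 rose, where 7.77% of all features were called (3.5% lower, 4.27% higher). Of all features called, 54.9% were higher with clp, and 88.7% were with median centring in place of loess. Of the 3 Gsdmc genes, 0 were still called without wt clp 90 d or wt clp 50 d, 1 (Gsdmc3) without Eng+/- none 50 d, Eng+/- clp 90 d or Eng+/- clp 50 d, and 2 without wt none 90 d or any tpa array. The median difference of the 7 genes was -0.82 on the log2 scale, beside 0.0108 over all features. The groups did not overlap for these 3 genes, as for 9.27% of all features.

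Gsdmc3 moved most. Without a named treatment its log2 ratio was 1.31 in Eng+/- and 0.65 in wt at 50 d, and -0.87 in Eng+/- and -0.65 in wt at 90 d. With clp it was -2.53 in Eng+/- and -1.32 in wt at 50 d, and -1.46 in Eng+/- and -1.52 in wt at 90 d. Every clp array lay below every untreated one, and the Eng+/- clp array at 50 d was the lowest of the 12. The fitted difference was -1.82 ± 0.27 (SE, 4 arrays against 4; 3.53-fold lower; limma adjusted p = 0.0174), and the clp array was lower in 4 of 4 matched pairs. With the authors' processed signals the difference was -2.38, with Cy5 alone -2.37 and with median centring -1.65 (limma adjusted p 0.01, 0.00501 and 0.0142). Its size thus depended on the scaling. With loess, the matched differences were larger at 50 d (-3.85 in Eng+/- and -1.97 in wt) than at 90 d (-0.59 and -0.87). The model has a term for each treatment and day, so this SE leaves out the spread between days. Leaving out wt clp 90 d gave -1.77 with an adjusted p of 0.0644 in the limma fit, and leaving out wt clp 50 d gave -2.15 with 0.0531, so each of these arrays ended the call.

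A further Gsdmc3 probe, also above background on all 12 arrays, ran in the same direction with a smaller difference. Its clp arrays lay between -2.17 and -0.43 and the untreated ones between -0.5 and 0.04, so the groups overlapped. The clp difference on this probe was -0.92 ± 0.28 (SE; limma adjusted p = 0.0817) and did not pass. Over the 12 arrays the probes correlated at r = 0.712, a description over arrays that share one reference pool.

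Gsdmc, the first gene of the chromosome 15 row, fell with clp by a smaller step. Its untreated values were 0.84 in Eng+/- and 0.45 in wt at 50 d, and -0.52 and -0.38 at 90 d. The clp values were -1.03 in Eng+/- and -0.63 in wt at 50 d, and -1.1 and -0.53 at 90 d. The highest clp array and the lowest untreated one were nearly level, and the gap between the groups was wider at 50 d than at 90 d. The difference was -0.92 ± 0.18 (SE, limma adjusted p = 0.0249, 1.89-fold lower, in 4 of 4 pairs). The authors' processed signals gave -1.41 (limma adjusted p 0.00891) and Cy5 alone -1.46 (0.00254), so the size depended on the scaling. The call was lost when any of the clp arrays or Eng+/- 50 d without treatment was left out (differences -1.06 to -0.77, adjusted p of 0.0509 to 0.0764 in limma), and with median centring in place of loess (-0.88, adjusted p 0.0777).

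Gsdmc4 was at 1.46 in Eng+/- and 0.52 in wt without treatment at 50 d, and at 0.06 and 0.23 at 90 d. On the clp arrays it was at -0.57 and -0.05 at 50 d and at -0.31 and -0.1 at 90 d. All 4 clp values were below 0 and all 4 untreated values above it. Its difference of -0.82 ± 0.21 (SE; 1.77-fold lower, in 4 of 4 pairs) had a limma adjusted p of 0.0487. With the authors' processed signals it was -2.11 (limma adjusted p 0.00943), with Cy5 alone -1.86 (0.00247) and with median centring -1.16 (0.00415). Leaving out 10 of the 12 arrays, one at a time, ended the call (limma adjusted p from 0.073 to 0.139, differences -1 to -0.56), and it held without Eng+/- none 90 d (0.0401) and without wt none 50 d (0.0362).

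The gasdermins outside the Gsdmc row did not pass for clp with the scaling used here. Gsdma2 was lower in 4 of 4 pairs, by -0.88 ± 0.24 (SE; limma adjusted p = 0.0576), with untreated arrays from -1.58 to -0.65 and clp arrays from -2.87 to -1.18. It passed with the processed signals (-1.08, limma adjusted p 0.0273), with Cy5 alone (-1.14, 0.014), with both channels required above background (0.0485), and when Eng+/- none 90 d (0.0356) or Eng+/- clp 50 d (0.0384) was left out. Gsdmd, the caspase-cut member, was also lower in 4 of 4 pairs, with a difference of -0.44 ± 0.15 (SE; limma adjusted p = 0.105), and passed with Cy5 alone (-0.97, 0.0169). Gsdma gave 0.49 ± 0.3, which ran from 0.07 to 0.91 with 1 array left out and passed at 0.91 without Eng+/- clp 90 d (limma adjusted p 0.037). Gsdma3 gave -0.07 ± 0.11, and the sign of Gsdma3 turned under 3 other scalings (0.42 with median centring, 0.21 with the authors' processed signals, 0.58 with Cy5 alone).

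Other cell markers also differed on the clp slide, not all in the direction of the Gsdmc genes. The median over 9 upper epidermis genes was -0.56 to -0.47 on the clp arrays and -0.22 to 0.2 on the untreated ones, and 3 of the 9 fell in the limma fit with 0 rising, where 3.5% of all features were called lower. Sebaceous gland genes had medians of -0.73 to -0.13 against -0.35 to 0.38 (3 of 10 fell), and macrophage and neutrophil genes -1.51 to -1.03 against -0.67 to -0.19 (2 of 8 fell). Basal epidermis genes had medians of 0.5 to 1.04 against 0.57 to 1.53, with 0 of 7 called. Hair genes went the other way, with medians of -1.11 to 1.08 against -5.62 to 0.55. The fitted clp difference was positive in 17 of 17 hair genes, with 2 called higher and 0 lower, where 4.27% of all features were called higher. Skeletal muscle genes had medians of -0.7 to 1.01 against 0.27 to 0.93, with 0 of 6 called. The part of these markers in the Gsdmc result was not tested.

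**Figure D1:**
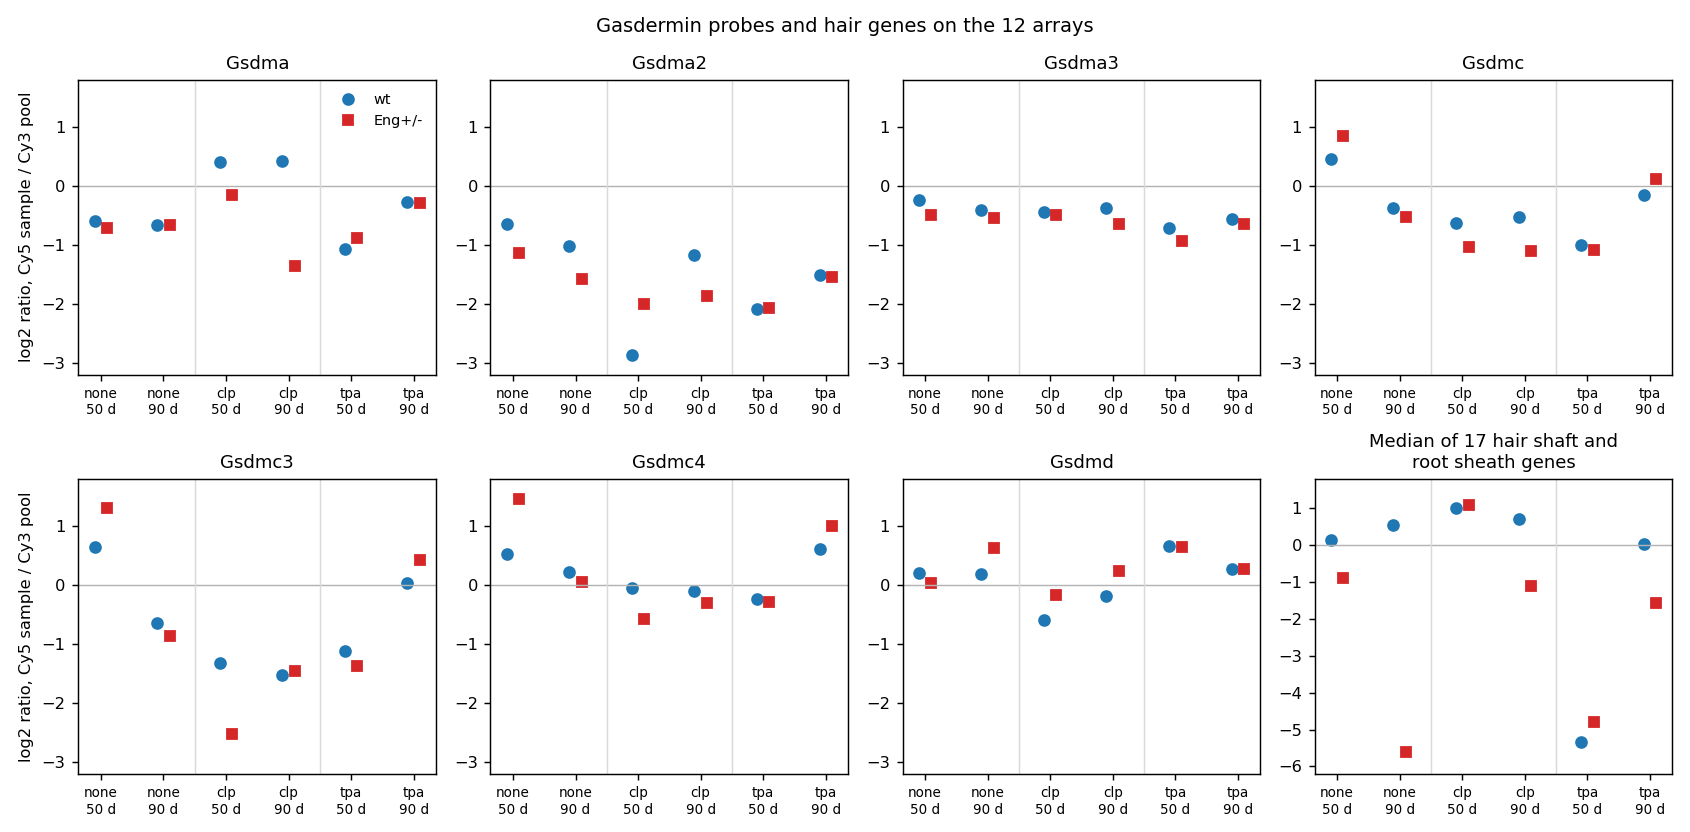
Log2 ratio of sample (Cy5) to pool (Cy3) of each measured gasdermin and, in the last panel on a longer axis, the median of 17 hair shaft and root sheath genes. Each point is 1 array, circles are wt and squares Eng+/-, by treatment and day. For Gsdmc, Gsdmc3 and Gsdmc4 every clp array lies below every untreated one, though for Gsdmc the groups nearly meet. Some tpa arrays lie among the clp values. Gsdmc, Gsdmc3 and Gsdmc4 move with the day in opposite directions without treatment and with tpa.

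With tpa, no gasdermin passed against the arrays with no named treatment: limma with Benjamini-Hochberg adjustment called 0 of 7, with 4 of 7 at an unadjusted p under 0.05, where 0.132% of all features were called (0.0279% higher, 0.104% lower; 21.2% of the calls were higher, against 83.6% with median centring and 56.9% with Cy5 alone) and 26% had such a p. This comparison uses the same untreated arrays as the clp comparison, so the 2 sets of differences are not independent. Gsdmc had -0.64 ± 0.18 (SE; limma adjusted p = 0.0925; -0.9 with Cy5 alone, 0.0448), Gsdmc3 -0.62 ± 0.27 and Gsdmc4 -0.29 ± 0.21, each lower in 2 of 4 pairs. For all of these genes the lower pairs were those at 50 d and the 90 d pairs were higher. At 50 d Gsdmc differed by -1.94 in Eng+/- and -1.46 in wt with tpa, beside -1.87 and -1.08 with clp. Gsdmc3 differed by -2.69 and -1.75 with tpa at 50 d, beside -3.85 and -1.97 with clp. At 90 d with tpa it differed by 1.29 and 0.68. Gsdma2 had -0.7 ± 0.24 (lower in 3 of 4 pairs) and Gsdma3 -0.29 ± 0.11 (lower in 4 of 4), where Gsdma3 turned to 0.2 with median centring, 0.09 with the processed signals and 0.08 with Cy5 alone. Gsdma was at 0.03 ± 0.3 and Gsdmd at 0.21 ± 0.15.

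Between the treatments, Gsdmc3 and Gsdmd were higher with tpa than with clp. In limma 2 of 7 gasdermins were called, both higher, where 8.17% of all features were called (4.54% higher, 3.62% lower). The median over the 7 genes was 0.28, beside -0.0494 over all features. The untreated arrays enter these tests only through the shared estimate of spread, and the groups again sit on different slides.

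Gsdmd was printed on 10 spots per array, whose log2 ratios had an SD of 0.04 to 0.1 within an array, against 0.38 between the 12 arrays. With tpa it was 0.65 in Eng+/- and 0.67 in wt at 50 d, and 0.28 in both at 90 d. With clp it was -0.17 in Eng+/- and -0.6 in wt at 50 d, and 0.24 and -0.18 at 90 d. All 4 tpa arrays lay above all 4 clp arrays, a separation seen in 16.2% of all features, although Eng+/- clp 90 d came close to the 90 d tpa arrays. The difference was 0.65 ± 0.15 (SE, 4 arrays against 4; limma adjusted p = 0.0361; 1.57-fold, higher in 4 of 4 pairs). Leaving out any clp or tpa array ended the call (limma adjusted p of 0.0561 to 0.188, differences 0.57 to 0.72), as did the authors' processed signals (0.9, limma adjusted p 0.0532).

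For Gsdmc3 the tpa arrays were at -1.38 and -1.11 at 50 d and at 0.43 and 0.03 at 90 d (Eng+/- first). The 50 d arrays overlapped the clp values and the 90 d arrays stood above them. The fit gave 1.2 ± 0.27 (SE; limma adjusted p = 0.0298; 2.3-fold, higher in 4 of 4 pairs). The call was lost without any one of the tpa arrays, Eng+/- clp 90 d, wt clp 90 d or Eng+/- clp 50 d (differences 0.87 to 1.35, limma adjusted p of 0.065 to 0.148). The further Gsdmc3 probe gave 0.48 ± 0.28 (limma adjusted p = 0.333). Gsdmc4 had 0.53 ± 0.21 (limma adjusted p = 0.162) and Gsdmc 0.28 ± 0.18, neither past the test. Gsdmc4 did pass with median centring (0.95, limma adjusted p 0.0195), the processed signals (1.35, 0.0424) and Cy5 alone (0.98, 0.0245). Gsdma, which did not pass, was called lower without Eng+/- clp 90 d (-0.87, limma adjusted p 0.0417).

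Gsdmd was highest on the arrays where hair genes were lowest. The 3 arrays with a hair-gene median of -4.8 or less, Eng+/- none 90 d, Eng+/- tpa 50 d and wt tpa 50 d, had Gsdmd at 0.63, 0.65 and 0.67, and on the other 9 arrays Gsdmd ran from -0.6 to 0.28. The 3 arrays form a cluster of their own, so no correlation is given. How many of all features separate them from the other 9 was not counted, so the split is not read as a trait of Gsdmd. Macrophage and neutrophil markers moved beside Gsdmd too, with medians of -0.34 to -0.13 with tpa and -1.51 to -1.03 with clp, 4 of 8 of them higher with tpa in the limma fit, where 4.54% of all features were called higher. The part of either list in the Gsdmd difference was not tested.

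**Figure D2:**
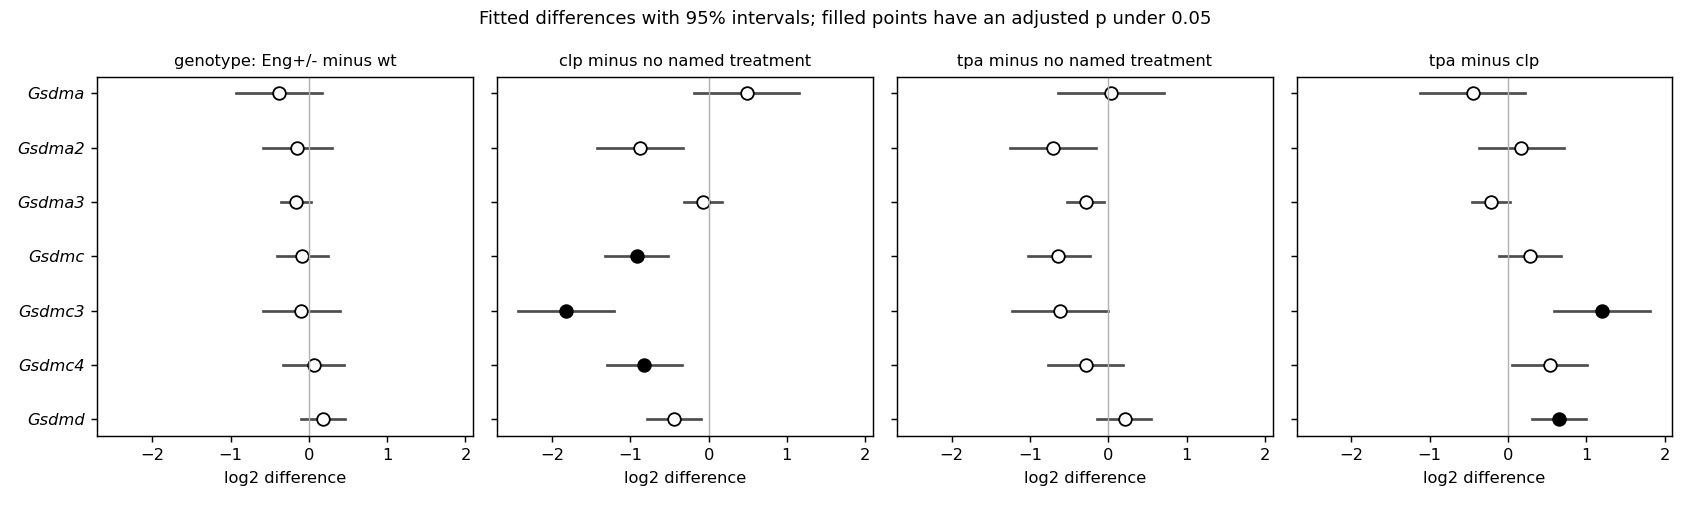
Fitted log2 difference of each gasdermin (points) with its 95% interval (bars) from the limma model, in 4 comparisons; filled points have a Benjamini-Hochberg adjusted p under 0.05. Gsdmc, Gsdmc3 and Gsdmc4 are filled for clp, Gsdmc3 and Gsdmd for tpa minus clp, and none for genotype or for tpa against no named treatment.

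Endoglin genotype did not change any gasdermin past the threshold. Limma called 0 of 7 gasdermins and 0% of all features, with 0 of 7 gasdermins and 3336 of 25085 features (13.3%) at an unadjusted p under 0.05. Gsdma3 was the most even of them, lower in Eng+/- in 6 of 6 pairs by 0.05 to 0.27, with a difference of -0.17 ± 0.09 (SE, 6 pairs; 95% interval -0.36 to 0.03; limma adjusted p = 0.434). The difference was -0.09 with median centring and 0 with the authors' processed signals (limma adjusted p 0.995 and 0.998). Its values ran from -0.93 to -0.24 over the 12 arrays, the narrowest range of the 7 used probes.

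Gsdma showed the widest gap between genotypes in any pair. At 90 d with clp it was -1.36 in Eng+/- and 0.42 in wt, a difference of -1.77, and at 50 d with clp -0.15 and 0.4. Without treatment and with tpa the genotypes lay within 0.18 of each other, at -0.67 and -0.67, -0.71 and -0.6, -0.29 and -0.27, and -0.88 and -1.07 (Eng+/- first). Over the 6 pairs the difference was -0.38 ± 0.24 (SE; 95% interval -0.93 to 0.17; limma adjusted p = 0.514), and it was -0.1 without Eng+/- clp 90 d and -0.11 with median centring. The pair with the wide Gsdma gap also differed in hair genes, with a median of -1.11 in Eng+/- and 0.72 in wt, and the part of this difference was not tested.

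The other intervals for genotype were -0.59 to 0.3 for Gsdma2, -0.41 to 0.24 for Gsdmc, -0.59 to 0.4 for Gsdmc3, -0.33 to 0.45 for Gsdmc4 and -0.1 to 0.46 for Gsdmd.

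The day difference of the Gsdmc genes ran in opposite directions without treatment and with tpa, without passing the adjusted test. Between 90 d and 50 d, limma called 0 of 7 gasdermins in each of the 3 treatment levels, where 0% of features were called at each. At an unadjusted limma p under 0.05 there were 3, 1 and 3 of 7 gasdermins without treatment, with clp and with tpa. Beside them stood 1377, 3166 and 1445 features (5.49%, 12.6% and 5.76%). Without treatment and with tpa the 3 were the Gsdmc genes, which followed one another over the arrays, so they are not independent. Without treatment both pairs were lower at 90 d for Gsdmc3 (-1.74 ± 0.38), Gsdmc (-1.1 ± 0.25) and Gsdmc4 (-0.85 ± 0.3), each with a limma adjusted p of 0.836. With tpa both pairs were higher at 90 d, by 1.47 ± 0.38 for Gsdmc3, 1.02 ± 0.25 for Gsdmc and 1.06 ± 0.3 for Gsdmc4 (limma adjusted p from 0.499 to 0.564). The further Gsdmc3 probe had the same signs with smaller differences. It gave -0.49 ± 0.4 without treatment and 0.56 ± 0.4 with tpa (limma unadjusted p 0.252 and 0.196). With median centring Gsdmc4 alone passed for the tpa days (1.66, limma adjusted p 0.00952). With clp the 3 genes gave 0.44 ± 0.38, 0.02 ± 0.25 and 0.11 ± 0.3, with 1 of 2 pairs higher in each.

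Pair by pair, Gsdmc3 at 90 d against 50 d was -2.18 in Eng+/- and -1.29 in wt without treatment, and 1.81 and 1.14 with tpa. All 7 gasdermins separated the tpa days without overlap, but so did 48.9% of all features. The tpa 50 d arrays are also the pair with the hair-gene medians of -4.8 and -5.33, against -1.57 and 0.03 at tpa 90 d. Upper epidermis medians were -0.16 and -0.59 at tpa 50 d and -0.07 and -0.12 at tpa 90 d (Eng+/- first), and the part of either list was not tested.

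Whether the day difference depends on treatment was tested with a limma F test over all features, and none was called. At an unadjusted p under 0.05 in this test there were 3421 features (13.6%) and 3 of 7 gasdermins, again the Gsdmc genes. The adjusted p was 0.216 for Gsdmc and Gsdmc3, 0.248 for Gsdmc4, 0.382 for Gsdma2, 0.384 for Gsdmd, 0.508 for Gsdma and 0.651 for Gsdma3 in this limma test. The smallest adjusted p of any feature was also 0.216. With every probe tested, the further Gsdmc3 probe had an adjusted p of 0.543 in this limma test, and the one used had 0.224. With median centring Gsdmc4 passed this test too (limma adjusted p 0.0056).

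**Figure D3:**
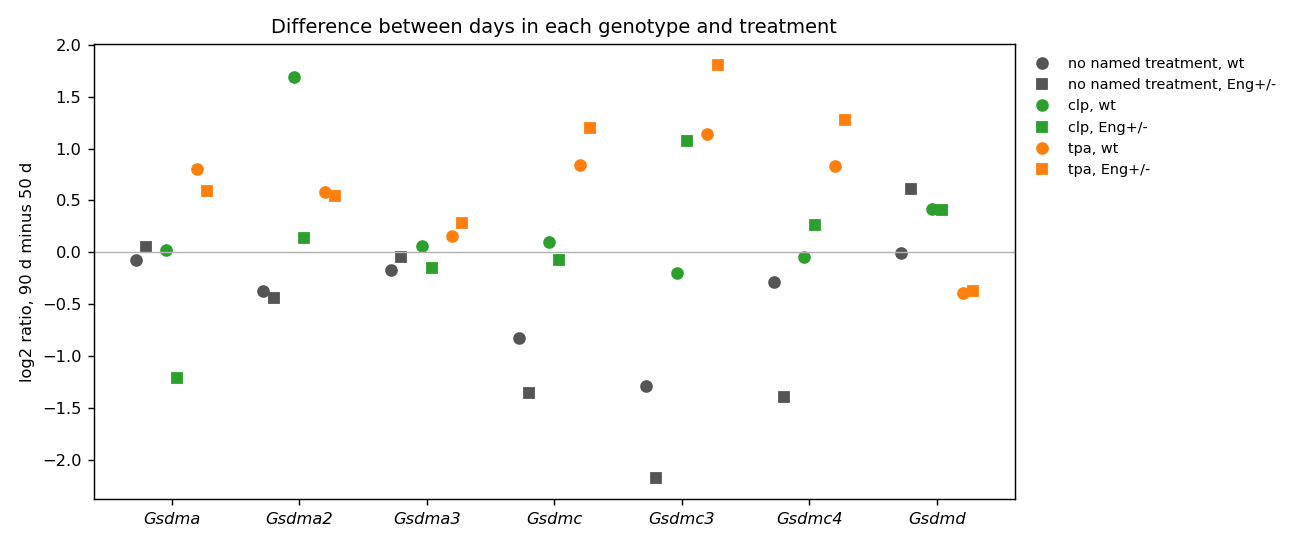
Log2 ratio at 90 d minus that at 50 d for each gasdermin, 1 point per genotype (circle wt, square Eng+/-) and treatment (grey none, green clp, orange tpa). For Gsdmc, Gsdmc3 and Gsdmc4 both grey points lie below 0 and both orange points above it, while for Gsdmd both orange points lie below 0.

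Across the 12 arrays the Gsdmc genes followed one another, with r = 0.923 between Gsdmc and Gsdmc3, 0.935 between Gsdmc and Gsdmc4 and 0.951 between Gsdmc3 and Gsdmc4. The Gsdma genes did so less, at 0.513 for Gsdma2 and Gsdma3, 0.473 for Gsdma and Gsdma3 and -0.127 for Gsdma and Gsdma2. Gsdma and Gsdmd ran opposite to each other, at -0.744. These values describe 12 arrays that share a reference pool and, in fours, a slide, and the part of shared hybridisation between the Gsdmc copies was not tested.

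The gene most like Gsdmc, Gsdmc3 and Gsdmc4 over the 12 arrays was in each case Casp14, a protease of cornifying keratinocytes, with r = 0.971, 0.94 and 0.931. The next were Cpox and Ly6m for Gsdmc (0.948 and 0.926), Sprr2a2, a cornified envelope protein, and Slc37a2 for Gsdmc3 (0.928 and 0.884), and the keratins Krt6b and Krt16 of stressed epidermis for Gsdmc4 (0.883 and 0.88). Casp14 itself ranged from -1.85 in Eng+/- clp 50 d to 0.76 in Eng+/- none 50 d, the arrays where Gsdmc3 was also lowest and highest. These genes were picked for their likeness to the members, so shared extreme arrays largely follow from that choice. Their own differences are not given for the same reason. Casp14 is also on the upper epidermis list above, so that list and this likeness are not independent.

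Gsdmd was closest to Lyl1 (a blood-lineage transcription factor, r = 0.979), H2-DMb1 (antigen presentation, 0.975) and Irgm2 (an interferon-induced GTPase, 0.974). Like Gsdmd, each was highest on Eng+/- none 90 d, Eng+/- tpa 50 d and wt tpa 50 d, the arrays lowest in hair genes. Each was lowest on wt clp 50 d, so these r values rest partly on that cluster and on a single low array. Gsdma was closest to Hopx (0.966), a homeodomain protein of epidermis and follicle, then Rangap1 and Phactr4 (0.962 and 0.957). Hopx ran from -0.99 in Eng+/- clp 90 d to 1.21 in wt clp 90 d, the pair in which Gsdma differed most. Hopx was picked for its likeness to Gsdma over these arrays, so this shared pair is no separate result. For Gsdma2 the closest were Nkx2-5, Tmem8b and Slco1a4 (0.914 to 0.907), and for Gsdma3 Phkg2, Ajap1 and Usp32 (0.955 to 0.936). Nkx2-5 was above background on only 7 arrays and Slco1a4 on 9, so their r values rest partly on arrays with dim signal.

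**Figure D4:**
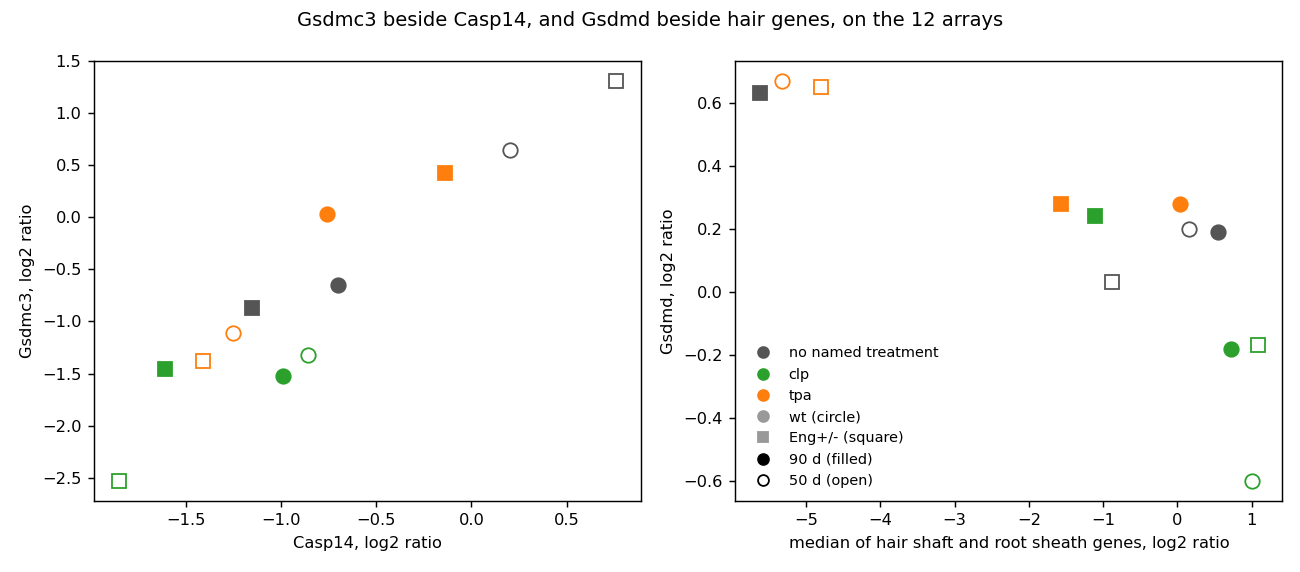
Left, Gsdmc3 against Casp14, the gene most like it; right, Gsdmd against the median of 17 hair genes; each point is 1 of the 12 arrays, as log2 ratios. Colour gives the treatment, shape the genotype and filling the day; on the right the 3 arrays at -4.8 or less have Gsdmd at 0.63 to 0.67.

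The Gsdma2 probes differed in reach. The one used was above background on all 12 arrays and ran from -2.87 in wt clp 50 d to -0.65 in wt none 50 d. The other was above background in Cy5 on 9 arrays and in Cy3 on 0, so its ratios of -0.35 to 0.26 are bounded by a dim reference. It gave -0.18 ± 0.1 for clp (limma adjusted p = 0.27), and the probes correlated at r = 0.651.

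Of the genes that act around gasdermins, several were lower with clp, as the Gsdmc genes were. From 40 listed genes (inflammasome sensors and adaptors, gasdermin proteases, released cytokines, other gasdermins, and rupture, repair and related death), 39 were tested and Nlrp6 had no probe. With clp, 6 fell and 0 rose in the limma fit, where 7.77% of all features were called (3.5% lower), with a median of -0.225 beside 0.0108 over all features. They were the transcription factor Irf1 (-1.24 ± 0.18, limma adjusted p = 0.0174), the alarmin Il33 (-1.29 ± 0.25, 0.0257), the granzymes Gzma (-0.81) and Gzmb (-0.54 ± 0.1, 0.0228), the inflammasome sensor Mefv (-0.73, 0.0347) and the gasdermin Gsdme (-0.56, 0.0408). Lymphocyte markers had medians of -0.3 to -0.02 with clp and -0.01 to 0.07 without treatment (4 of 8 fell, where 3.5% of all features did), and their part was not tested. Gzmb is on both lists and is among the markers that fell, so these counts are not independent. The count of 6 was 0 without wt clp 90 d or wt clp 50 d, 1 without Eng+/- none 50 d or Eng+/- clp 50 d, 3 without Eng+/- clp 90 d or any tpa array, and 13 without Eng+/- none 90 d. With median centring it was 2.

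With tpa against clp, 11 of the 39 rose and 0 fell, where 8.17% of all features were called (4.54% higher), with a median of 0.277 beside -0.0494. Gzma (1.35 ± 0.18, limma adjusted p = 0.00771), Gzmb (0.85 ± 0.1, 0.00629) and the sensor Nlrc4 (0.48 ± 0.07, 0.00917) had the smallest p, and the others were Naip2, Mefv, Il1a, Il18, Il33, Ninj1, Zbp1 and Irf1. Ninj1, which ruptures the membrane after pore formation, gave 1.04 ± 0.2 (limma adjusted p = 0.0195). The count of 11 was 3 without wt tpa 90 d or wt tpa 50 d, 4 when wt clp 50 d was left out, 5 without either Eng+/- tpa 90 d or wt clp 90 d, 6 without Eng+/- clp 50 d or Eng+/- tpa 50 d, and 14 without any one of the untreated arrays.

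The proteases and cargo tied most directly to Gsdmd varied in size. Casp1, the inflammasome caspase, had -0.14 ± 0.13 for clp and 0.04 ± 0.13 for tpa minus clp, and ran from -0.63 to 0.16 over the arrays. Casp4, the caspase of cytosolic lipopolysaccharide, had -0.51 ± 0.21 and 0.69 ± 0.21 (limma adjusted p = 0.164 and 0.0793). Casp8, which can cut Gsdmc and Gsdmd, had -0.57 ± 0.16 and 0.27 ± 0.16 (limma adjusted p = 0.0618 and 0.334). Il1b, the cytokine released through Gsdmd pores, had -0.14 ± 0.23 and 0.86 ± 0.23 (limma adjusted p = 0.736 and 0.0508), and Il18 had -0.57 ± 0.19 and 0.78 ± 0.19 (0.0903 and 0.0376).

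No listed gene was called for genotype, tpa against no named treatment or day (limma, 0 of 39 in each). The array wt clp 50 d held the lowest value of Casp1, Casp4, Il1b, Il18, Gzma, Gzmb, Irf1 and Il33 among the 12, and also of Gsdmd and Gsdma2. Leaving it out kept the Gsdmd difference between tpa and clp at 0.57 (limma adjusted p 0.118).

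**Figure D5:**
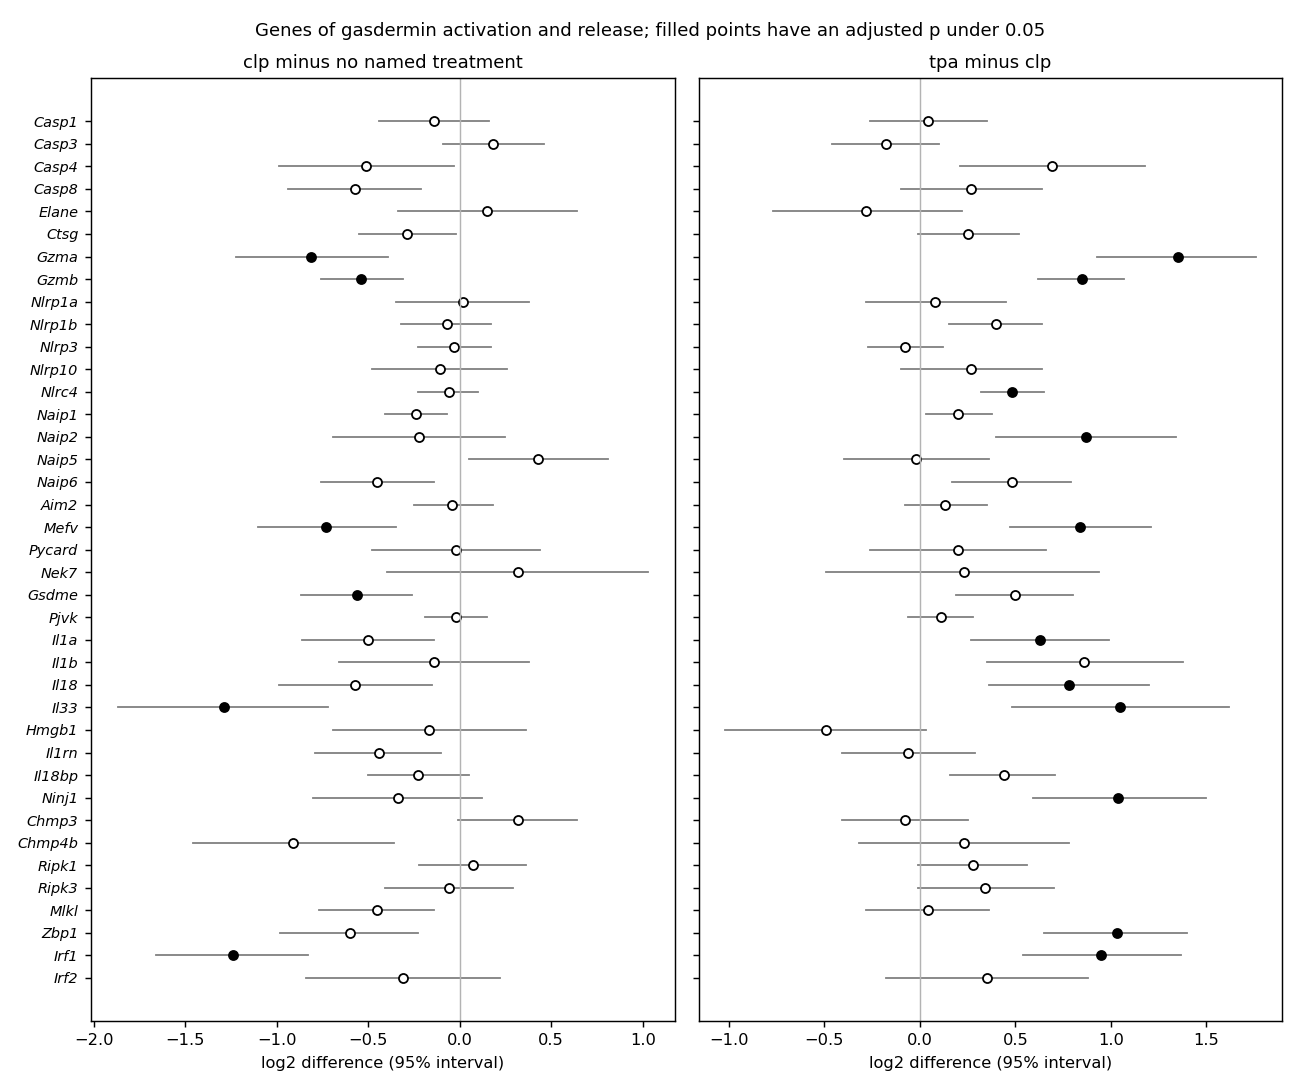
Log2 differences (points) with 95% intervals (bars) of the 39 tested genes of gasdermin activation and release for clp minus no named treatment (left) and tpa minus clp (right); filled points have a limma adjusted p under 0.05. On the left 6 points are filled, all below 0, and on the right 11, all above 0.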

How the data were processed

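Total RNA was measured on Agilent 2-colour 4x44K mouse arrays (design 026655, probe annotation on mm9, per the file headers). The deposited files hold median foreground and background intensity of both channels. The deposited log10 ratio of the authors' processed signals, per the file headers background-subtracted and dye-normalized, equalled the value table (largest difference 0). Feature Extraction is version 10.7.3.1 per the file headers and 10.0 per the submitters' processing notes.

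In R 4.3.3 with limma 3.58.1, intensities were background-corrected (normexp, offset 50) and loess-normalized within each array, with control spots at weight 0 and outlier spots left out. Spots of a probe were averaged, probes were named by accession through RefSeq, and each gene was represented by its brightest probe on average (25085 features, 17167 with a symbol). A linear model held a genotype term and a term for each of the 6 conditions (treatment and day) over all 12 arrays (5 residual and 4.16 prior degrees of freedom, eBayes with trend). The SE of a treatment difference therefore leaves out the spread between days within a treatment. All p-values are two-sided, with a threshold of 0.05 after Benjamini-Hochberg adjustment. The scripts were tested on simulated data. The number of arrays limits the precision.

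The members, gene lists and tests were chosen with earlier results of these data known. All members are named. Of the other genes, those with the smallest p among calls (3 per direction and comparison), Casp1, Casp4, Casp8, Il1b and Il18, and the 3 most alike of each member by r are named; Gsdme, Mefv, Ninj1 and further called genes were named after their values were seen.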

Additional observations from a re-analysis of the deposited data

Results flagged for a closer look

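For 6 gasdermins the day difference had one sign in both genotype pairs of one treatment and the opposite sign in both pairs of another. How many of all features meet this rule was not counted, so the count is not read as a trait of the family. The days separated without overlap in 23.1% of all features without treatment, 41.1% with clp and 48.9% with tpa. The gap between the 2 day differences (90 d minus 50 d, log2) was 3.21 for Gsdmc3, 2.12 for Gsdmc and 1.91 for Gsdmc4, each tpa against no named treatment. Their day differences were higher at 90 d with tpa and lower at 90 d without treatment. On the further Gsdmc3 probe the day differences were smaller, at 0.56 with tpa and -0.49 without treatment. For Gsdma3 the same gap was 0.33. Gsdma2 gave 0.96 for tpa and 1.32 for clp, each against no named treatment. Gsdmd differed between clp and tpa by 0.8, being higher at 90 d in both clp pairs and lower in both tpa pairs. These pairwise gaps were not tested one by one. The limma F test of the day by treatment interaction, adjusted over all features, called none of the 6, with adjusted p from 0.216 (Gsdmc and Gsdmc3) to 0.651 (Gsdma3).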

How the results depend on the processing

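No pairing beyond genotype, treatment and day was possible, because the labels carry no replicate numbers to block on. The model itself already compares genotypes within each treatment and day. Leaving out 1 array at a time, the features called ranged from 3 to 4506 for clp, 0 to 4966 for tpa, 203 to 2969 for tpa minus clp, 0 to 263, 0 to 57 and 0 to 55 for the day without treatment, with clp and with tpa, and 0 to 216 for the interaction, with 0 throughout for genotype. The gasdermins called then, Gsdma and Gsdma2 among them in single fits, ranged from 0 to 4 for clp and 0 to 2 for tpa minus clp, with 0 for the other comparisons, and the listed pathway genes from 0 to 13 for clp, 0 to 11 for tpa and 3 to 14 for tpa minus clp. A condition left with 1 array is assumed to vary like the others. Gsdmc3 stayed below 0 for clp in all 12 of these fits (-2.15 to -1.48). Median centring, which shifts the median of all features to 0.241 for clp and 0.336 for tpa, called 222 features for genotype, 1037 for tpa (3 pathway genes), 245 for the day with tpa and 313 for the interaction (1 gasdermin each, Gsdmc4) and 2 pathway genes for clp. The authors' processed signals called 2980 features, 4 gasdermins (the 3 Gsdmc genes and Gsdma2) and 11 pathway genes for clp and 0 features for tpa. Cy5 alone called 6150 features, 5 gasdermins and 17 pathway genes for clp, and 457 features, 1 gasdermin and 2 pathway genes for tpa. Requiring both channels above background, or eBayes without trend, gave 4 features each for tpa. Without the tpa 50 d arrays, clp had 878 features and 3 pathway genes. Chosen after seeing the data, leaving out both wt arrays whose reference channel correlated least with the others (none 50 d at 0.964 and clp 90 d at 0.981) gave 8 features, 0 gasdermins and 0 pathway genes for clp, 10 features for tpa, 331 features, 0 gasdermins and 5 pathway genes for tpa minus clp, 7 and 1 features for the day without treatment and with clp, and 5 for the interaction; in that fit Gsdmc3 was -1.97 for clp (limma adjusted p 0.0726). Gsdmc4 for clp was not called without the dim-probe filter (limma adjusted p 0.0585), with every probe tested (0.0519) or without trend (0.062). No gasdermin value that passed in the report changed sign under any alternative run, but this is a weak check. Runs that changed only the filter, the probes tested or the trend kept the same differences, and each call was lost in some run. The signs that turned belong to values that did not pass. With median centring these were, for genotype, Gsdma2 0.09, Gsdmc 0.19 and Gsdmc3 0.11; for clp, Gsdma3 0.42; for tpa, Gsdma3 0.2 and Gsdmc3 0; for the day without treatment, Gsdma 0.48, Gsdma2 0.17 and Gsdma3 0.19; and for the day with clp, Gsdmc -0.27 and Gsdmc4 -0.04. With the processed signals they were Gsdmc4 -0.3 (genotype), Gsdma3 0.21 (clp), Gsdma -0.03 and Gsdma3 0.09 (tpa), Gsdma 0.19 and Gsdma3 0.39 (day without treatment), and Gsdmc -0.4 and Gsdmc4 -0.09 (day with clp). With Cy5 alone they were Gsdmc 0.09 and Gsdmc4 -0.09 (genotype), Gsdma3 0.58 (clp), Gsdma -0.07 and Gsdma3 0.08 (tpa), Gsdma 0.03 and Gsdma3 0 (day without treatment), and Gsdmc -0.36 and Gsdmc4 -0.17 (day with clp). Without both wt arrays they were Gsdma2 0.07 and Gsdmc4 -0.09 (genotype) and Gsdmc -0.22 (day with clp). With 1 array left out, signs turned in some fits for values that did not pass: the genotype values then reached -0.19 to 0.01 for Gsdmc, -0.25 to 0.13 for Gsdmc3 and -0.11 to 0.18 for Gsdmc4. The ranges were -0.13 to 0.2 for Gsdma with tpa, -0.13 to 0.47 for Gsdma2 in tpa minus clp, and -0.24 to 0.21 for Gsdma in the day without treatment. For the day with clp they were -1.43 to 0.24 for Gsdma, -0.11 to 0.03 for Gsdma3, -0.27 to 0.3 for Gsdmc, -0.23 to 1.11 for Gsdmc3 and -0.24 to 0.46 for Gsdmc4. The causes were not tested.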
